A study of Xenopus laevis with 39 samples.

Results

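Molecular chaperones of the cytosol and the endoplasmic reticulum (ER) were followed as a gene family across the nose and the olfactory bulb of the clawed frog Xenopus laevis, an allotetraploid species in which most genes exist as an L and an S homeolog. The members were found by gene symbol alone: heat shock proteins and their transcription factors, J-domain proteins, subunits of the chaperonin CCT, protein disulfide isomerases, and a short set of ER chaperones with the ER stress factor xbp1. This name rule found 130 of 37223 genes, that is 77 symbols, of which 71 rows carry the suffix L and 58 the suffix S. The names reach beyond cytosol and ER: 14 members act in mitochondria and 2 belong to cilia, while 40 belong to the ER and the rest mostly to the cytosol and nucleus. The rule also names the ER lectin calr and the CCT subunits cct3 and cct6, but no gene analysed here carries those symbols. An hspa symbol with a letter after its number, such as hspa1a, is outside the rule. Class counts below cover only the genes that the rule found.

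The RNA-seq series holds 39 libraries of 13 groups with 3 libraries each. Adult noses (stage 66, after metamorphosis) were set against whole noses of larvae before metamorphosis, which are called control larval noses here. The principal cavity, the main olfactory epithelium, and the vomeronasal organ (VNO), part of the accessory system, were sampled from such larvae. The tissue field of the VNO samples names the olfactory lobe instead, and the group follows their titles. Larval noses and bulbs were taken 2 days, 1 week and 7 weeks after a transection, and untreated larval bulbs served as their control. Larval noses were also taken after 5 h of amino acid exposure at doses labelled 200 and 1000, whose unit is incomplete in the labels. No label gives a strain, an age in days, a sham operation or a vehicle, and the labels do not say whether each library stands for its own animal, so the p-values measure the spread between these libraries only. The labels give 1 control group for noses and 1 for bulbs, so the time and dose groups share their controls. No control is labelled with a time, so a change with time after transection cannot be told apart from a change with larval age.

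Chaperones bind unfolded proteins and help them to fold or to be degraded. In the cytosol, HSP70 and HSP90 work in cycles of ATP hydrolysis. J-domain proteins bring clients to HSP70, and HSP110 proteins exchange the nucleotide of HSP70. The heat shock factor hsf1 raises the transcription of cytosolic chaperones when unfolded protein accumulates. In the ER the HSP70 protein hspa5 (BiP), the HSP90 protein hsp90b1 and the disulfide isomerases serve secreted and membrane proteins, and the unfolded protein response, in which xbp1 acts as a transcription factor, raises them. Secretory cells and neurons full of membrane receptors are known for a large ER load.

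Library depth ranged between 25.82 and 180.53 M assigned reads, with a median of 69.66 M. Both shallowest libraries, at 25.82 M and 27.19 M, are of the 7-week nose group. Summed central neuron markers were 120.1 to 142 CPM (read counts scaled to library size) in control larval noses and 1739 to 1822 CPM in control bulbs, and vomeronasal neuron markers were 2127 to 3043 CPM in the principal cavity and 4837 to 9586 CPM in the VNO. Muscle markers stood apart in library 2 of the 2-day noses (2104 CPM) and library 1 of the control larval noses (2823 CPM), while the other libraries of the 2-day, 1-week and control noses held 30.6 to 264 CPM. Whole tissues were sequenced, so fewer cells of a type and less RNA per cell cannot be told apart in any result below.

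By level per length, constitutive cytosolic chaperones led the family. The HSP70 cognate hspa8.S averaged 2413 TPM (a level per transcript length, the authors' values) over the 13 group means, with group means between 1732 and 3072 TPM. The HSP90 gene hsp90ab1.S averaged 1913 TPM, between 1345 and 2812 TPM. Their homeologs hspa8.L (594 TPM) and hsp90ab1.L (557 TPM) came next, ahead of the ER chaperones hspa5.S (264 TPM, 62 to 850.3 TPM) and hsp90b1.L (220.3 TPM, 43.5 to 1017 TPM). Of the 130 members, 69 averaged at least 10 TPM and 14 averaged below 1 TPM. The summed TPM of the 40 ER members was between 429.8 in a 7-week bulb library and 5758 in a VNO library.

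**Figure D1:**
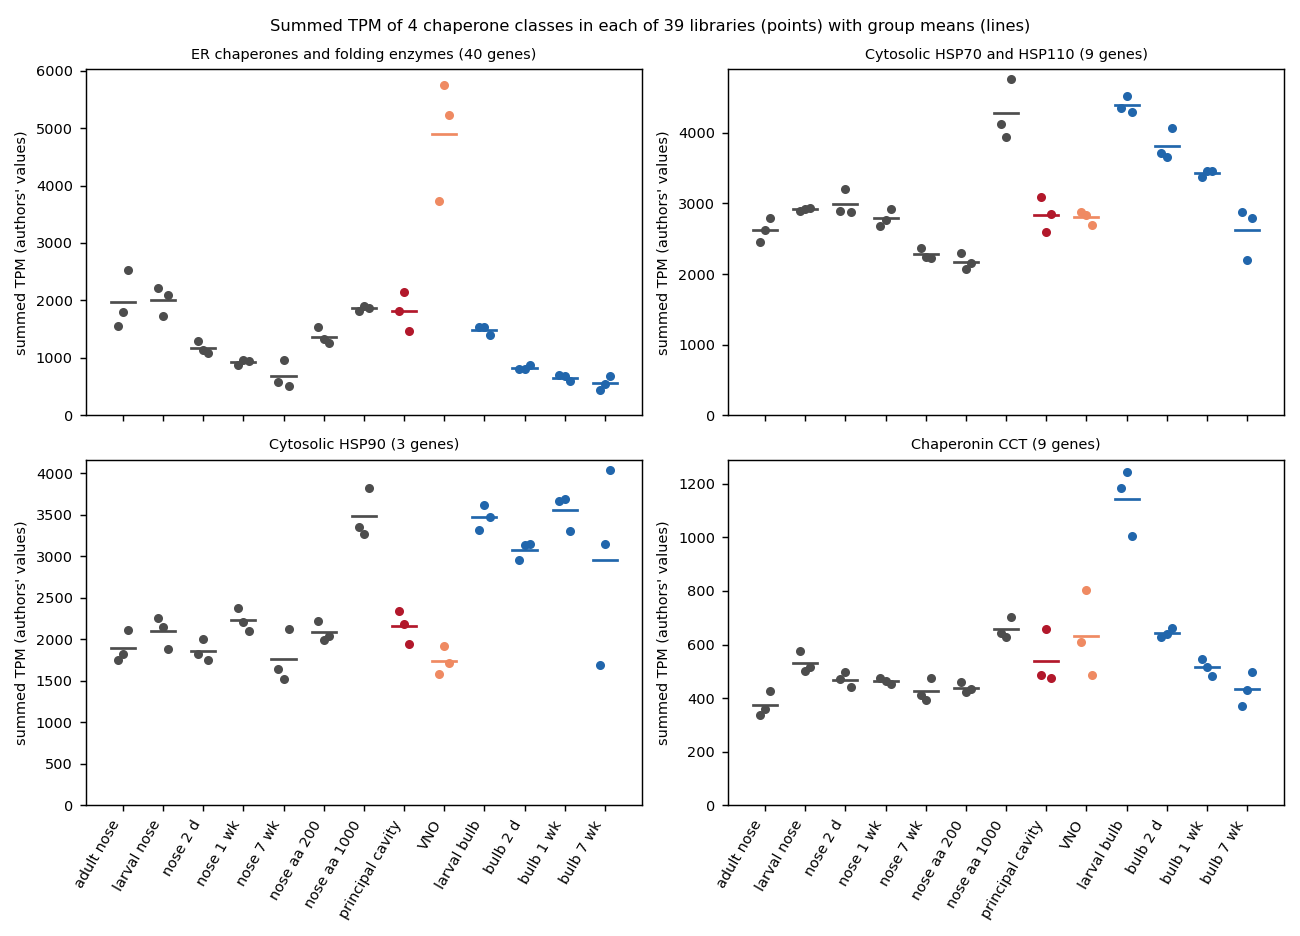
Summed TPM (y axis) of 4 chaperone classes in every library, with 1 point per library, a line at each group mean, and the 13 groups along the x axis. VNO libraries hold 3726 to 5758 TPM of ER members, noses exposed to amino acids at 1000 hold 3939 to 4767 TPM of HSP70 and HSP110 members, and bulbs after transection hold less ER and CCT transcript than control bulbs.

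The higher amino acid exposure was accompanied by higher transcripts of cytosolic and mitochondrial chaperones. Against control larval noses, 66 of 129 tested members were higher and 14 were lower, with a median log2 fold change of 0.55. Over all 34151 genes tested, 49.5% were called, 26.8% higher and 22.7% lower, so the members stood above the background in the higher direction and below it in the lower one. By class, 14 of 16 cytosolic J-domain genes, 7 of 9 HSP70 and HSP110 genes, all 3 HSP90 genes, 7 of 9 CCT genes and 11 of 14 mitochondrial genes rose, and none of these classes had a member that fell.

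Among members of at least 5 CPM in either group, the stress-inducible HSP90 gene hsp90aa1.1.L changed most. It had 11.7, 5.48 and 9.98 CPM in control noses, 17.2, 15.1 and 18.5 CPM in noses exposed at 200, and 202, 164 and 204 CPM in noses exposed at 1000. The groups did not overlap, and at 1000 the gene was 4.50 ± 0.27 log2 units (SE) higher than in controls (adjusted p = 7e-10, edgeR's quasi-likelihood test) and at 200 it was 0.89 ± 0.24 higher. The J-domain gene dnaja4.1.L had 27.7, 19.8 and 30.3 CPM in controls, 34.8, 30 and 37.9 CPM at 200, and 164, 142 and 179 CPM at 1000. All 3 libraries at 1000 were thus above every other nose library in the dose series, and the log2 difference from controls was 2.74 ± 0.18 (adjusted p = 9.3e-10). For the HSP110 gene hsph1.S, a nucleotide exchange factor of HSP70, the values were 20.1, 10.3 and 17.4 CPM in controls, 12.2, 10.8 and 14.3 CPM at 200, and 95.7, 75.9 and 101 CPM at 1000. At 1000 it was 2.61 ± 0.26 log2 units above controls, with no overlap of these groups. The J-domain gene dnajb2.L, whose mammalian counterpart is enriched in neurons, had 6.88, 9.47 and 9.79 CPM in controls, 17.6, 16.4 and 17.7 CPM at 200, and 40.5, 39.9 and 44.3 CPM at 1000. The 3 groups did not overlap, and the log2 difference between 1000 and controls was 2.36 ± 0.15.

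Chaperones of the mitochondrial matrix were higher as well. The mitochondrial HSP60 gene hspd1.L had 87.9, 89.5 and 122 CPM in noses exposed at 1000 against 30.5, 22.5 and 31.2 CPM in controls (log2 difference 1.94 ± 0.17). Its homeolog hspd1.S rose by 1.88, its partner hspe1.S by 0.85 and the mitochondrial HSP70 genes hspa9.L and hspa9.S by 1.17 and 1.01 log2 units. Among constitutive cytosolic chaperones, hspa8.L had 1209.5, 1209.8 and 1497 CPM at 1000 against 500.1, 380.4 and 519.6 CPM in controls (1.59 ± 0.14), and the abundant hspa8.S rose by 0.72. With both homeologs summed the hspa8 difference was 0.92. The HSP90 gene hsp90ab1.S, with 3001, 2833 and 3643 CPM at 1000 against 1779, 1408 and 1416 CPM in controls, rose by 1.14 ± 0.18 log2 units. Both dnaja1 homeologs rose (1.83 for S, 1.30 for L), as did the stress-inducible J-domain gene dnajb1.L (1.28). The heat shock factors hsf1.L and hsf2.L were each 1.10 log2 units higher.

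ER members were split at the higher dose, 11 higher and 10 lower of 40, close to the 26.8% and 22.7% over all genes. The neurotrophic ER protein gene manf.L had 41.8, 15.6 and 39.6 CPM in controls, 17.2, 13.6 and 19.3 CPM at 200, and 57.7, 67.3 and 74.6 CPM at 1000. It was higher at 1000 than at 200 by 2.11 ± 0.35 log2 units (adjusted p = 0.00032) and than in controls by 1.14, a call that ended when only these groups were fitted. The microsomal HSP70 gene hspa13.L, with 12.1, 10.9 and 13 CPM at 1000 against 3.53, 2.88 and 3.1 CPM at 200, rose by 2.03 ± 0.20 between the doses. For xbp1.L the values were 116, 146 and 156 CPM in controls, 222, 206 and 224 CPM at 200, and 526, 422 and 451 CPM at 1000. The 3 groups did not overlap, and the gene was 0.63 ± 0.16 log2 units higher at 200 and 1.85 ± 0.16 higher at 1000 than in controls. In the other direction, dnajb11.L, an ER J-domain partner of hspa5, had 64.3, 49 and 59.3 CPM in controls, 31.9, 32.2 and 33.3 CPM at 200, and 33.6, 32.9 and 34.1 CPM at 1000, a log2 change of -0.84 at 200 and -0.68 at 1000. Also lower at 1000 were the disulfide isomerase pdia5.S (-0.77, or -0.32 and no longer called with homeologs summed), dnajb11.S (-0.62) and dnajc18.S (-0.99, or -0.59 with homeologs summed). Outside the ER list, dnajc4.L was lower as well (-1.06). The call of creld2.S (-0.89) ended with homeologs summed, without control library 1 and without any 1 of the exposed libraries, and its lowest size was -0.38.

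**Figure D2:**
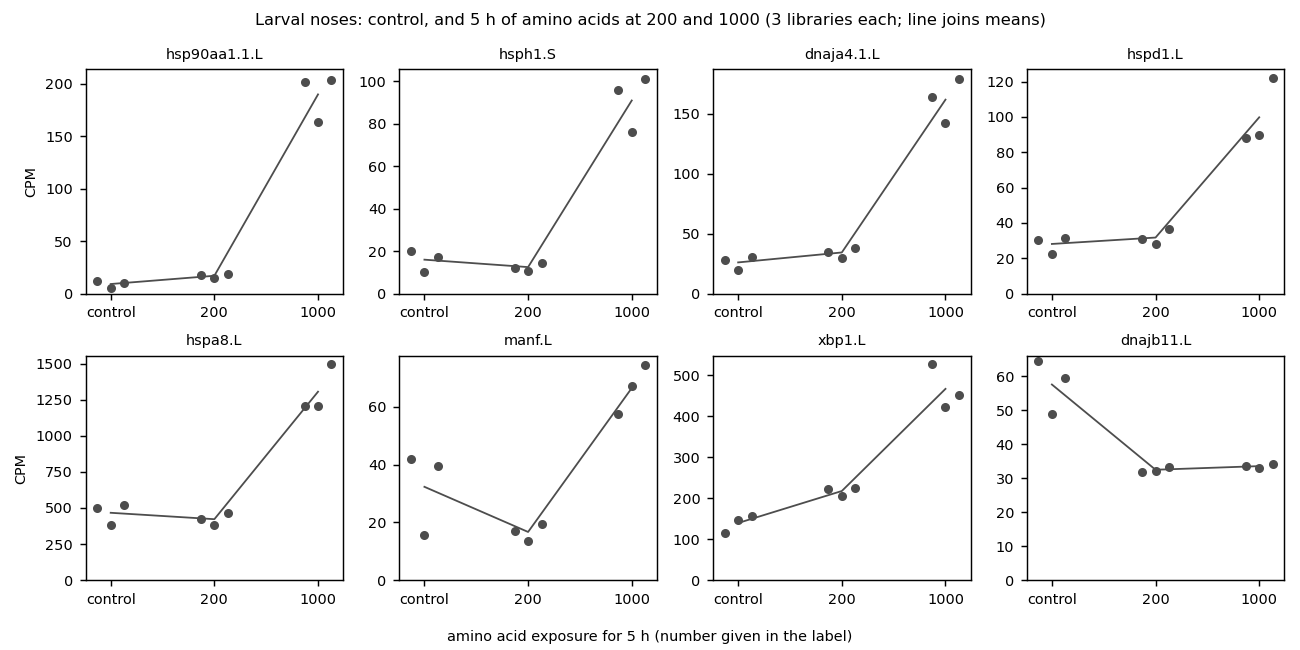
CPM (y axis) of 8 chaperone genes in control larval noses and after 5 h of amino acids at 200 and 1000 (x axis), with 1 point per library and a line through the group means. hsph1.S, dnaja4.1.L, hspd1.L and hspa8.L were not called at 200 and lay above every control library at 1000, hsp90aa1.1.L and xbp1.L were higher at each dose, and dnajb11.L was lower at both doses.

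Between the doses, 65 of 129 members were higher at 1000 than at 200 and 4 were lower, with a median log2 difference of 0.47; over all genes 26.9% were called, 16.4% higher and 10.6% lower. All 9 HSP70 and HSP110 genes rose between the doses, among them hsph1.L by 1.98 and hspa4.L by 1.06 log2 units, and so did 17 ER members. The 4 lower members were dnajc4.L (-0.66), dnajc28.L (-0.48), the ER membrane J-domain gene dnajc1.L (-0.31) and dnaja4.1.S. The last had 0.275, 0.2 and 0.126 CPM at 1000 against 0.389, 0.897 and 0.664 CPM at 200 (-1.59 ± 0.57), with a call that ended in 6 of 12 alternatives and a value of 2.35 with homeologs summed.

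At the dose of 200 members were called higher at about the share of all genes, and lower less often than all genes. In that comparison 23 members were higher and 18 lower than in control larval noses, with a median of -0.07, and over all genes 35.4% were called, 17.8% higher and 17.7% lower. The total of 41 became 25 without library 1 of the exposed noses. The members highest over controls were J-domain genes. dnajc11.S, of mitochondrial membranes, had 29, 21.3 and 20.7 CPM against 3.2, 4.34 and 3.83 CPM (2.63 ± 0.42 log2 units, or 0.97 with homeologs summed). dnajc15.L, of the inner mitochondrial membrane, had 23.7, 23.1 and 27.2 CPM against 9.98, 8.94 and 9.85 CPM (1.35 ± 0.13 log2 units), dnajc21.L, of the maturing ribosome, had 39.9, 38.7 and 38.2 CPM against 13.2, 18.4 and 15.3 CPM (1.31 ± 0.14), and dnaja2.L, an HSP70 partner, rose by 1.04 ± 0.12. The groups did not overlap for dnajc11.S, dnajc15.L or dnajc21.L. Of the ER members, 12 fell and 3 rose. The largest fall was of pdia5.S, with 15.4, 15.2 and 15.5 CPM against 52.9, 40.2 and 44.8 CPM (-1.60 ± 0.18), and the membrane lectin canx.S (-0.83), pdia6.S (-0.83, or -0.53 without control library 1) and pdia5.L (-0.71, or -1.11 with homeologs summed) were lower as well.

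Genes of the same pathways outside the name rule were counted as well. Of 56 cytosolic co-chaperone genes, 31 rose and 2 fell at 1000 against controls, including the HSP70 co-chaperones bag3.L (4.17 ± 0.41 log2 units) and hspbp1.L (3.59 ± 0.22), the HSP90 activator ahsa1.S (2.18) and the HSP70 to HSP90 adaptor stip1.L (1.54). Of 76 genes of ER quality control and ER stress, 32 rose and 8 fell, among them the stress sensor ern1.L (1.34), the stress-induced factor ddit3.S (1.84) and the translocon subunit sec61a1.L (1.07) on the higher side and ostc.S (-1.53) on the lower. Over all genes in that contrast, 26.8% were higher and 22.7% lower. Cell type markers differed too. Summed cycling cell markers were 470.4 to 748 CPM in controls, 75.7 to 91.5 CPM at 200 and 86.3 to 104 CPM at 1000, and 14 and 15 of their 16 genes fell at 200 and at 1000. Summed muscle markers were 80.9 to 2823 CPM in controls, 19.4 to 27 CPM at 200 and 17.6 to 21.1 CPM at 1000, and 16 and 17 of 17 fell. Summed basal epithelium markers were 1749 to 2076 CPM at 1000 against 4658 to 5946 CPM in controls. Between the doses, 2 of 16 cycling cell markers rose and none fell. The part of these cell types in the chaperone differences was not tested.

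ER chaperones were lower in the principal cavity than in the VNO, and 5 members outside the ER list were called. Of 124 members with a test, the principal cavity had 2 at a higher level and 25 at a lower one than the VNO. The 40 ER members held 22 of the lower ones and had a median log2 difference of -0.88. Over all 31396 genes tested, 15.2% were called, 8.66% higher and 6.53% lower. The count of 27 fell to 15 without principal cavity library 1 and was 59 when all 39 libraries were fitted together. Summed over the ER members, the principal cavity libraries held 1809, 2147 and 1466 TPM and the VNO libraries 3726, 5758 and 5221 TPM.

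The ER chaperone hspa5.S had 203, 276 and 181 CPM in the principal cavity against 799.7, 866 and 889 CPM in the VNO, a log2 difference of -2.01 ± 0.23 (adjusted p = 0.0012). hsp90b1.L had 445, 434 and 358 CPM against 1359.8, 2047 and 2181 CPM (-2.23 ± 0.24, adjusted p = 0.001). No library of the principal cavity reached the lowest VNO library for either gene. The secreted ER protein gene manf.S had 31.5, 45.4 and 26.5 CPM in the principal cavity against 182, 165 and 140.3 CPM in the VNO (-2.30 ± 0.26). The J-domain partners of hspa5 were lower too, dnajb11.S with 42.3, 43.7 and 30.1 CPM against 120.2, 181 and 205 CPM (-2.18 ± 0.25) and dnajb9.S with 152, 114 and 141 CPM against 366, 544 and 700.0 CPM (-2.04 ± 0.25). creld2.S, a disulfide isomerase-like gene of ER stress, had 7.02, 9.05 and 6.14 CPM against 24.7, 37.1 and 35.9 CPM (-2.19 ± 0.23), and both homeologs of the exchange factor hyou1 (-1.90 for L, -1.79 for S) and of sdf2l1 (-1.81 for L, -1.75 for S) were lower. The disulfide isomerases pdia6.L (-1.47) and pdia6.S (-1.35) were lower too, but their calls, like that of manf.L (-1.96), ended without principal cavity library 1.

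Neither xbp1 homeolog was called between these tissues, and the median of their log2 differences was 0.01. Nor was any cytosolic HSP70, HSP110, HSP90 or CCT gene called: hspa8.S, for example, differed by -0.16 ± 0.22 and hsp90ab1.S by 0.07 ± 0.19 log2 units. All HSP70, HSP110 and CCT genes nevertheless lay on the lower side, among them hspa2.L (-1.24 ± 0.65), hsph1.L (-0.96 ± 0.32) and cct2.L (-0.78 ± 0.30). In simulated data with 200 changed genes this model recovered 8% of 2-fold changes. In the real contrast 15.2% of genes were called, so the adjustment was less strict there and 8% does not give its recovery. A missing call still does not show equal levels. The Rab-related J-domain gene dnajc27.L was called higher (0.82 ± 0.21), a call that ended with homeologs summed and without 5 of the 6 libraries in turn. The other higher member, dnaja4.1.S, had 0.568, 0.326 and 0.536 CPM in the principal cavity against 0, 0 and 0.0583 CPM in the VNO (4.36 ± 1.10, adjusted p = 0.034), and its call ended in 4 of 11 alternatives and stood at -0.6 with homeologs summed. Of the 76 ER quality control genes outside the rule, 20 were lower in the principal cavity and none higher, among them erp44.L (-1.15), ppib.L (-1.22) and herpud1.L (-1.08). Over all genes, 6.53% were lower and 8.66% higher. Vomeronasal neuron markers, 4 of 8 lower and 2 higher, and motile ciliated cell markers, 9 of 14 higher in the principal cavity (1149 to 1407 CPM against 369 to 743 CPM in the VNO), moved with the same contrast, as did muscle markers (22.9 to 28.2 CPM against 35.8 to 133 CPM), and their part in the ER difference was not tested.

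**Figure D3:**
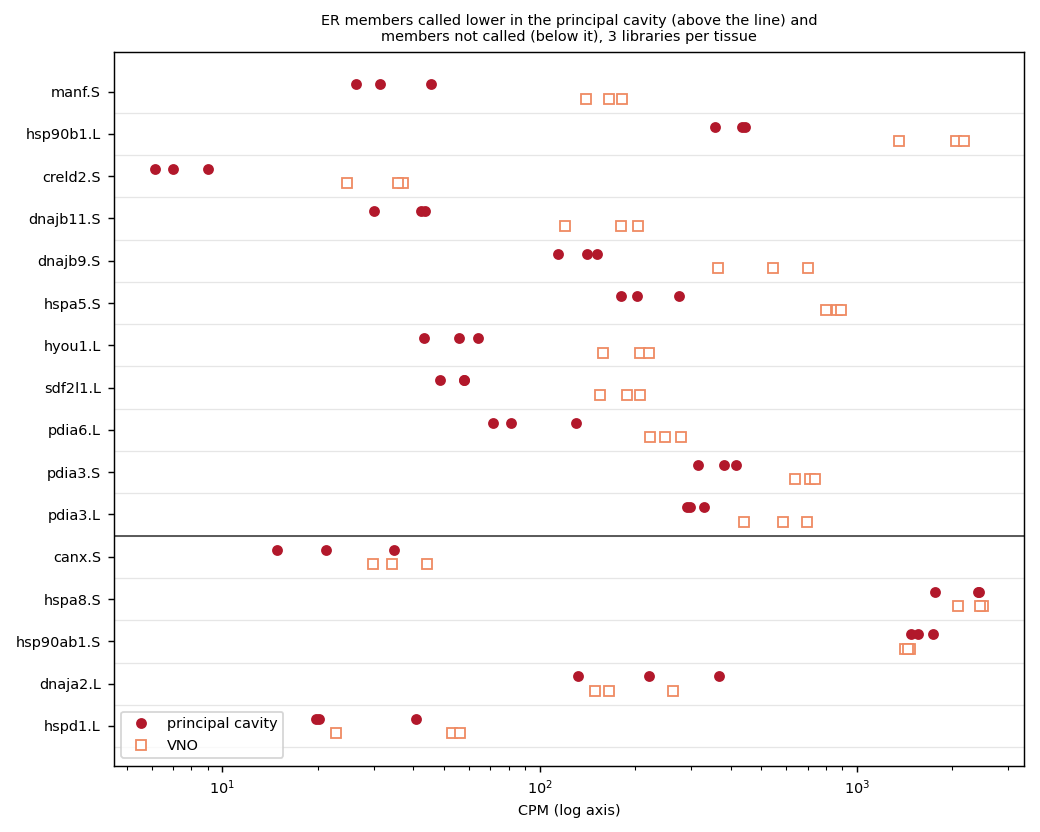
CPM on a log axis of 16 chaperone genes in the principal cavity (filled circles, upper row of each gene) and the VNO (open squares, lower row), 3 libraries each. For the 11 ER genes above the line no principal cavity library reached the lowest VNO library, as for manf.S at 31.5, 45.4 and 26.5 against 182, 165 and 140.3 CPM, while canx.S, hspa8.S, hsp90ab1.S, dnaja2.L and hspd1.L below the line were not called, and all but hsp90ab1.S overlapped.

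Control larval noses and control larval bulbs differed in opposite ways for ER and cytosolic chaperones. Of 130 members, 41 were higher and 54 lower in the nose, against a background of 74.8% of 34508 genes called, 39.7% higher and 35.1% lower. ER members accounted for 24 of the higher ones and 6 of the lower ones, while 8 of 9 CCT genes and 7 of 9 HSP70 and HSP110 genes were lower in the nose, and none of these 2 classes was higher. xbp1.S had 51.5, 55.7 and 76.2 CPM in noses against 11.2, 11.4 and 11.8 CPM in bulbs (2.49 ± 0.14 log2 units), and xbp1.L was 2.25 ± 0.14 higher. The ER genes sdf2l1.S (2.13 ± 0.16), dnajb9.S (2.03 ± 0.15) and creld2.S (2.15 ± 0.33, or 0.73 with homeologs summed) were also higher. The axonemal J-domain gene dnajb13.S, with 37.6, 36.1 and 33.7 CPM in noses against 7.12, 7.74 and 6.66 CPM in bulbs (2.39 ± 0.12), was higher beside motile ciliated cell markers of 839 to 869.8 CPM in noses against 79.4 to 86.8 CPM in bulbs. No library of the 2 tissues overlapped for these 6 genes.

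Lower in the nose were the auxilin gene dnajc6.S, which uncoats clathrin vesicles, with 16, 22.6 and 23.2 CPM in noses against 95.3, 102 and 101 CPM in bulbs (-2.20 ± 0.19), and its homeolog dnajc6.L (-1.74 ± 0.17). Both dnajc18 homeologs were lower by about the same amount (-2.03 each). hsph1.L had 14.7, 10.7 and 15.3 CPM in noses against 55.3, 55.9 and 43.2 CPM in bulbs (-1.84 ± 0.19), and hspd1.L was lower as well (-1.73 ± 0.13). hspa5.S had 417, 205 and 405 CPM in noses against 216, 218 and 176 CPM in bulbs, so that library 2 of the control noses lay among the bulbs. Its call (0.83 ± 0.33, adjusted p = 0.031) ended in 6 of 12 alternatives. Of the ER quality control genes outside the rule, 59 of 76 were higher in the nose and 5 lower, and of the cytosolic co-chaperones 4 of 56 were higher and 29 lower. Over all genes, 39.7% were higher in the nose and 35.1% lower.

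In bulbs after transection, more chaperones were lower than higher against control bulbs at all 3 times. At 2 days 9 of 125 members were higher and 69 lower (median -0.44), at 1 week 12 were higher and 76 lower (median -0.57), and at 7 weeks 28 were higher and 60 lower (median -0.23). Over the 31701 genes tested, 46.2% were called at 2 days (21.6% higher, 24.7% lower), 56.0% at 1 week (27.0% higher, 29.1% lower) and 65.9% at 7 weeks (32.1% higher, 33.7% lower). ER members fell in 30, 33 and 31 of 40 cases, CCT genes in 8, 9 and 7 of 9, and HSP70 and HSP110 genes in 8 of 9 at each time. No CCT, HSP70 or HSP110 gene rose, while the ER members cdnf.L (1.19), dnajc25.S (0.74), dnajb12.L (0.61) and dnajb12.S (0.42) were higher at 7 weeks. The ER stress factor gene xbp1.L was also higher then (0.59 ± 0.12), and its homeolog xbp1.S was lower (-0.55 ± 0.13).

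manf.S had 24.5, 26.3 and 20.1 CPM in control bulbs, 8.13, 8.86 and 8.79 CPM at 2 days, 5, 4.26 and 4.58 CPM at 1 week, and 4.01, 4.22 and 4.1 CPM at 7 weeks. Its log2 changes were -1.49 ± 0.11, -2.39 ± 0.11 and -2.56 ± 0.11, and the libraries of every time lay under the lowest control. The homeolog manf.L fell by 1.91, 2.63 and 2.10 log2 units. For hspa5.S the values were 216, 218 and 176 CPM in controls, 68.4, 77.2 and 87.6 CPM at 2 days, 46.4, 45.4 and 38.3 CPM at 1 week and 71.8, 68.6 and 89.5 CPM at 7 weeks, with log2 changes of -1.41 ± 0.13, -2.27 ± 0.13 and -1.44 ± 0.13. hyou1.S, an HSP110-type partner of hspa5, fell by 1.30, 2.04 and 2.03.

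In the cytosol, hsph1.L had 55.3, 55.9 and 43.2 CPM in controls, 15.8, 17.6 and 19.9 CPM at 2 days, 13, 11.3 and 10 CPM at 1 week, and 8.99, 10.8 and 14.4 CPM at 7 weeks (log2 changes -1.56, -2.21 and -2.21, SE 0.17 each). Its homeolog hsph1.S fell by 1.64, 2.51 and 2.12. The chaperonin subunit gene cct4.S, whose complex folds actin and tubulin, had 277, 294 and 230.3 CPM in controls, 133, 140.3 and 144 CPM at 2 days, 106, 97.4 and 92 CPM at 1 week and 120.1, 90.5 and 100 CPM at 7 weeks. Its log2 changes were -0.97, -1.48 and -1.40, each with an SE of 0.12. At 7 weeks cct8.S fell by 0.74, while cct8 with both homeologs summed stood at 0.03. The HSP90 genes were not called at 2 days or 1 week.

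A smaller set rose in the bulb. dnajb2.L had 9.59, 9.95 and 11 CPM in controls, 14.2, 15.6 and 16.7 CPM at 2 days, 18.9, 20.5 and 21.7 CPM at 1 week and 37.7, 38.2 and 42.8 CPM at 7 weeks. Every group lay above the one before, with log2 changes of 0.58 ± 0.09, 0.96 ± 0.09 and 1.92 ± 0.09. dnaja2.L rose by 0.53, 0.71 and 1.57 (SE 0.09 each) and reached 321, 292 and 328 CPM at 7 weeks against 99.6, 95.9 and 113 CPM in controls. The J-domain gene dnajc28.L rose by 1.00, 1.47 and 2.06 (SE 0.16 each). At 7 weeks hsp90aa1.1.L had 66.8, 49.9 and 72.7 CPM against 23.2, 25.2 and 24.5 CPM in controls (1.34 ± 0.13). By class, 5 of 7 heat shock factors tested and 6 of 14 mitochondrial genes were higher at 7 weeks. Beside dnajc28.L, dnajc15.L (1.71 ± 0.23) and dnajc11.S (1.71 ± 0.24, or 0.52 with homeologs summed), genes of mitochondrial membranes, were among them. The mitochondrial genes hspd1.S (-0.98), hspd1.L (-0.81) and dnaja3.L (-0.59) were lower, as was the heat shock factor hsf1.S (-0.49 ± 0.13). Of the higher factors, hsf3.L and hsf3.1 overlapped controls, and hsf4.S averaged 0.219 CPM against 0.0785 CPM in controls. In bulbs at 7 weeks, library 1 stood apart for hspa8.S, with 3155 CPM against 1633 and 1956 CPM in libraries 2 and 3.

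Cell type markers moved in the same bulbs. Summed cycling cell markers were 560.3 to 806 CPM in control bulbs, 138 to 155 CPM at 2 days, 63.6 to 70.3 CPM at 1 week and 61.1 to 105 CPM at 7 weeks, and 14 of their 15 tested genes fell at each time. Leukocyte markers summed to 29.4 to 32.4 CPM in control bulbs, 109 to 121 CPM at 2 days, 91.2 to 99.5 CPM at 1 week and 79.9 to 139 CPM at 7 weeks. Central neuron markers summed to 1709 to 1948 CPM after transection against 1739 to 1822 CPM in controls. Their part in the chaperone changes was not tested. Of the ER quality control genes outside the rule, 33, 41 and 30 of 76 fell and 5, 10 and 24 rose at 2 days, 1 week and 7 weeks, and of the cytosolic co-chaperones 26, 33 and 17 of 56 fell and 4, 6 and 14 rose. Over all genes, 24.7%, 29.1% and 33.7% fell and 21.6%, 27.0% and 32.1% rose. At 7 weeks the counts of both lists were near these shares.

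**Figure D4:**
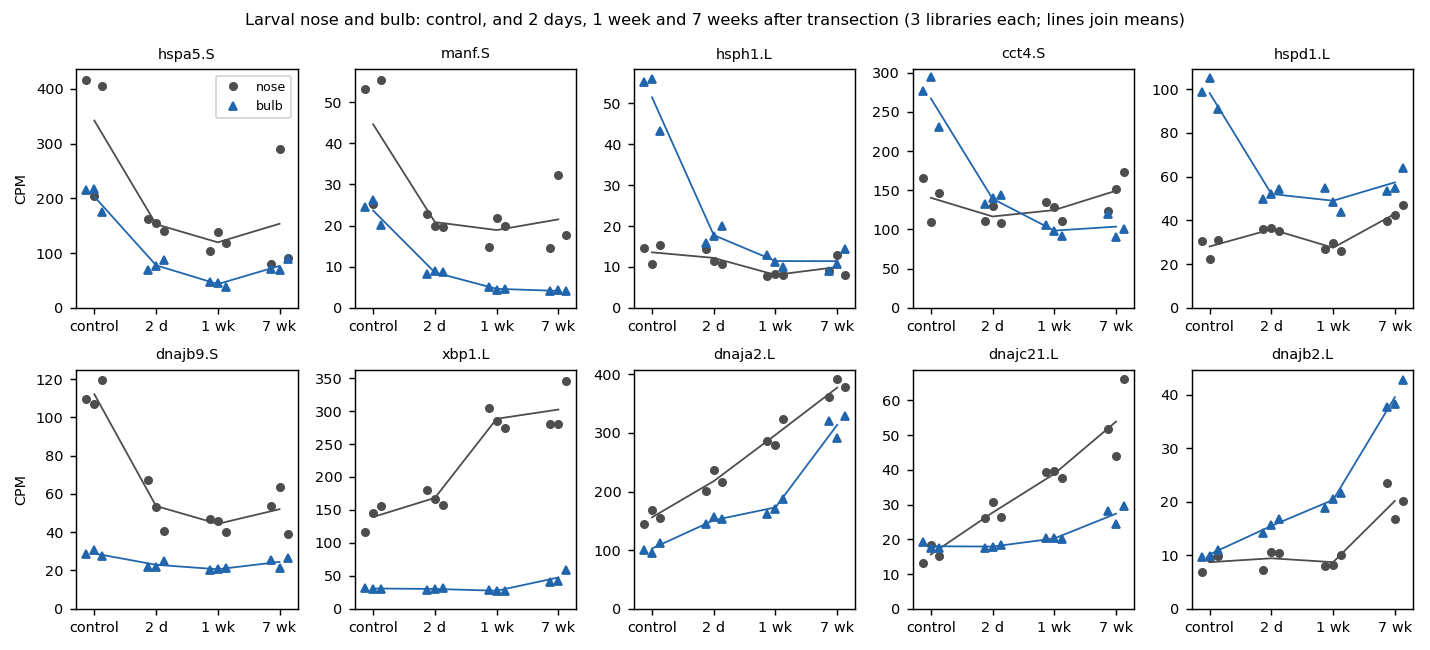
CPM (y axis) of 10 chaperone genes in control larvae and 2 days, 1 week and 7 weeks after transection (x axis) in nose (circles) and bulb (triangles), with 1 point per library and lines through the group means. manf.S and hspa5.S were lower after transection in bulbs at every time, dnajb2.L was highest in bulbs at 7 weeks (37.7 to 42.8 CPM), and library 2 of the 7-week noses stood apart for hspa5.S at 290.2 CPM.

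In noses after transection, members that fell were mostly those of the ER. At 2 days 8 of 129 members were higher and 23 lower than in control larval noses (median -0.18), at 1 week 18 were higher and 42 lower (-0.26), and at 7 weeks 43 were higher and 35 lower (-0.08). Over the 34151 genes tested, 20.2% were called at 2 days (9.62% higher, 10.6% lower), 39.7% at 1 week (18.0% higher, 21.6% lower) and 48.5% at 7 weeks (21.7% higher, 26.8% lower). The 2-day total of 31 was 19 without control library 1, 15 without control library 3, 20 without 2-day library 2 and 18 without 2-day library 3. The ER members fell in 18, 28 and 26 of 40 cases at the 3 times and rose in 1, 1 and 5.

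dnajb9.S had 109.7, 107 and 119.6 CPM in control noses, 67.1, 53.3 and 40.6 CPM at 2 days, 47, 45.8 and 40.3 CPM at 1 week and 53.6, 63.4 and 39 CPM at 7 weeks. The log2 changes were -1.11, -1.38 and -1.06 (SE 0.15 each), and no library after transection reached the lowest control. sdf2l1.S fell by 1.06, 1.14 and 1.25 log2 units (SE 0.13 each). hsp90b1.L had 462, 343 and 421 CPM in controls, 256, 228 and 191 CPM at 2 days, 172, 187 and 179.7 CPM at 1 week and 152, 315 and 148 CPM at 7 weeks. Its changes were -0.92, -1.24 and -0.96 (SE 0.21 each); the last ended as a call, at -0.35, without the pair of shallowest 7-week libraries.

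For hspa5 the libraries lay far apart in controls and at 7 weeks. hspa5.S had 417, 205 and 405 CPM in controls, 163, 155 and 140.4 CPM at 2 days, 103, 138 and 118 CPM at 1 week and 80.6, 290.2 and 90.2 CPM at 7 weeks, so that library 2 of the 7-week noses was above a control. The change at 1 week was -1.57 ± 0.40 (adjusted p = 0.0048). The 2-day call (-1.23 ± 0.39, adjusted p = 0.038) ended in 5 alternatives, each of which left out 1 library. The 7-week call (-1.13 ± 0.39) ended in 6. Without the pair of shallowest libraries, which leaves library 2 alone, the 7-week value was -0.21. manf.S had a change of -1.29 ± 0.29 at 1 week and a 2-day call (-1.16 ± 0.29) that ended without control library 3. Among genes lowest at 7 weeks, pdia6.S fell by 1.23 ± 0.22 and sdf2l1.L by 1.28 ± 0.13. With library 2 alone, creld2.S (-1.57 ± 0.33) stood at -0.90 and dnajc18.S (-1.18 ± 0.24) at -0.60. The call of pdia6.L (-1.26) also depended on the pair of shallowest libraries. In the cytosol, hsph1.S had 4.85, 6.44 and 5.49 CPM at 1 week against 20.1, 10.3 and 17.4 CPM in controls (-1.56 ± 0.26), and the vesicle gene dnajc6.L fell by 1.41 ± 0.18 at that time. Cytosolic calls at 7 weeks went both ways. hsph1.S (-0.78 ± 0.26) and dnajb1.L (-0.43 ± 0.11) were lower, while cct8.L (0.90 ± 0.17), cct7.L (0.44 ± 0.13) and hsp90ab1.S (0.54 ± 0.18) were higher.

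At 1 week and 7 weeks xbp1.L went the other way from most ER chaperones. It had 116, 146 and 156 CPM in control noses, 305, 285 and 275 CPM at 1 week and 281, 280.2 and 346 CPM at 7 weeks. Its log2 changes were 1.01 ± 0.16 and 1.18 ± 0.16, and neither time overlapped the controls. Its homeolog xbp1.S was called lower at 7 weeks (-0.35 ± 0.11), and with both summed the gene was higher by 0.84. Several J-domain genes were higher. dnajc21.L had 13.2, 18.4 and 15.3 CPM in controls, 26, 30.6 and 26.4 CPM at 2 days, 39.4, 39.6 and 37.5 CPM at 1 week and 51.6, 44 and 66 CPM at 7 weeks (log2 changes 0.78 ± 0.13, 1.27 ± 0.14 and 1.85 ± 0.14). dnajc15.L had 34.5, 41.4 and 46.9 CPM at 7 weeks against 9.98, 8.94 and 9.85 CPM in controls (2.15 ± 0.13), and dnaja2.L reached 360.4, 392 and 379 CPM against 144, 169 and 155 CPM (1.33 ± 0.12). dnajc11.S had 23.1, 66.8 and 33.9 CPM at 7 weeks against 3.2, 4.34 and 3.83 CPM (3.50 ± 0.43), and 1.68 log2 units remained with homeologs summed. At 1 week the dnajc11.S change was 1.96 ± 0.41, and 0.53 with homeologs summed. At 7 weeks 12 of 14 mitochondrial members, 6 of 8 nuclear and ribosomal J-domain genes and 5 of 7 heat shock factors tested were higher, hsf2.L among them (1.28 ± 0.12).

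dnajc21.L, dnajc15.L and dnaja2.L were also higher in noses exposed to amino acids at 200, as given above. At the higher amino acid dose these genes were above controls as well (1.84 ± 0.14, 1.78 ± 0.13 and 1.24 ± 0.12). All these nose contrasts share the same 3 control libraries. In 7-week bulbs, set against control bulbs, these genes were higher too (0.57 ± 0.08, 1.71 ± 0.23 and 1.57 ± 0.09). Markers of other cell types moved as well. Cycling cell markers summed to 470.4 to 748 CPM in control noses, 219 to 231 CPM at 2 days, 120.3 to 162 CPM at 1 week and 59.8 to 120.3 CPM at 7 weeks, and 14 of 16 fell at each time. Ciliated receptor neuron markers summed to 488 to 642 CPM in controls, 234 to 357 CPM at 2 days, 201 to 221 CPM at 1 week and 283 to 526 CPM at 7 weeks, with 7, 8 and 5 of 10 lower. Vomeronasal neuron markers summed to 1258 to 1488 CPM in controls, 456 to 775 CPM at 2 days, 403 to 441 CPM at 1 week and 497 to 1129 CPM at 7 weeks, with 5, 7 and 7 of 8 lower. Leukocyte markers summed to 464 to 922 CPM in controls, 1070.4 to 1209 CPM at 2 days, 1181 to 1313 CPM at 1 week and 547 to 761 CPM at 7 weeks. Their part in the ER chaperone changes was not tested. Of the ER quality control genes outside the rule, 27, 34 and 32 of 76 fell and 0, 8 and 16 rose. Over all genes, 10.6%, 21.6% and 26.8% fell and 9.62%, 18.0% and 21.7% rose.

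The responses of nose and bulb to transection were compared directly as a difference of log2 changes, nose minus bulb. At 2 days 17 of 130 members responded higher in the nose and 6 lower, at 1 week 36 and 10, and at 7 weeks 37 and 13. Over the 34508 genes tested, 16.1% differed at 2 days (5.52% higher, 10.5% lower), 25.4% at 1 week (10.9% higher, 14.5% lower) and 35.7% at 7 weeks (16.4% higher, 19.3% lower). CCT genes were higher in 3, 9 and 8 of 9 cases and HSP70 and HSP110 genes in 3, 7 and 8 of 9, and none was lower. hsph1.L differed by 1.24 ± 0.26 at 2 days, 1.33 ± 0.26 at 1 week and 1.79 ± 0.26 at 7 weeks, and cct4.S by 1.19 ± 0.23 and 1.53 ± 0.23 at the later times. Of the 40 ER members, 4, 6 and 9 differed, in both directions at each time and at a smaller share than all genes. manf.S was higher at 1 week (1.04 ± 0.35) and 7 weeks (1.53 ± 0.35). The ER J-domain gene dnajb9.L was lower at 2 days (-1.25 ± 0.21) and 1 week (-1.08 ± 0.21). At 2 days its log2 change was -1.17 ± 0.15 in the nose and -0.03 ± 0.09, not called, in the bulb.

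In adult noses, subunits of the CCT chaperonin were lower than in control larval noses and 1 HSP70 gene was far higher. Of 129 members, 18 were higher and 31 lower (median -0.12), against 45.3% of all genes called, 22.7% higher and 22.6% lower. The HSP70 gene hspa2.L, best known in mammals from male germ cells, had 37.6, 39.7 and 49.4 CPM in adult noses against 2.09, 1.96 and 1.67 CPM in larval noses, a difference of 4.42 ± 0.21 log2 units (adjusted p = 4.3e-12). Smaller rises were found for hsp90aa1.1.L (1.05 ± 0.24), with 21.7, 13.4 and 23.2 CPM against 11.7, 5.48 and 9.98 CPM, the ER membrane J-domain gene dnajb14.L (0.87 ± 0.09), with 25.6, 28.5 and 25.8 CPM against 13.8, 14 and 14.4 CPM, and dnajc16.L (0.92 ± 0.23). The call of xbp1.L (0.54 ± 0.16) ended without adult library 1, at 0.35.

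CCT genes were lower in adult noses in 7 of 9 cases. cct7.L had 118, 117 and 108 CPM in adult noses against 222, 189 and 191 CPM in larval noses (-0.86 ± 0.13), cct8.L 125, 127 and 132 CPM against 264, 191 and 229 CPM (-0.89 ± 0.17), and cct4.S 76.5, 78.7 and 94.6 CPM against 165, 109 and 147 CPM (-0.81 ± 0.17), all without overlap. The J-domain genes dnajc4.L (-0.97 ± 0.16) and dnajc1.L (-0.94 ± 0.10) were lower too, and pdia5.S (-0.83 ± 0.17) stood at -0.44 with homeologs summed. Cycling cell markers were 121 to 247 CPM in adult noses against 470.4 to 748 CPM in larval noses, with 14 of 16 lower, and their part in these differences was not tested.

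**Figure D5:**
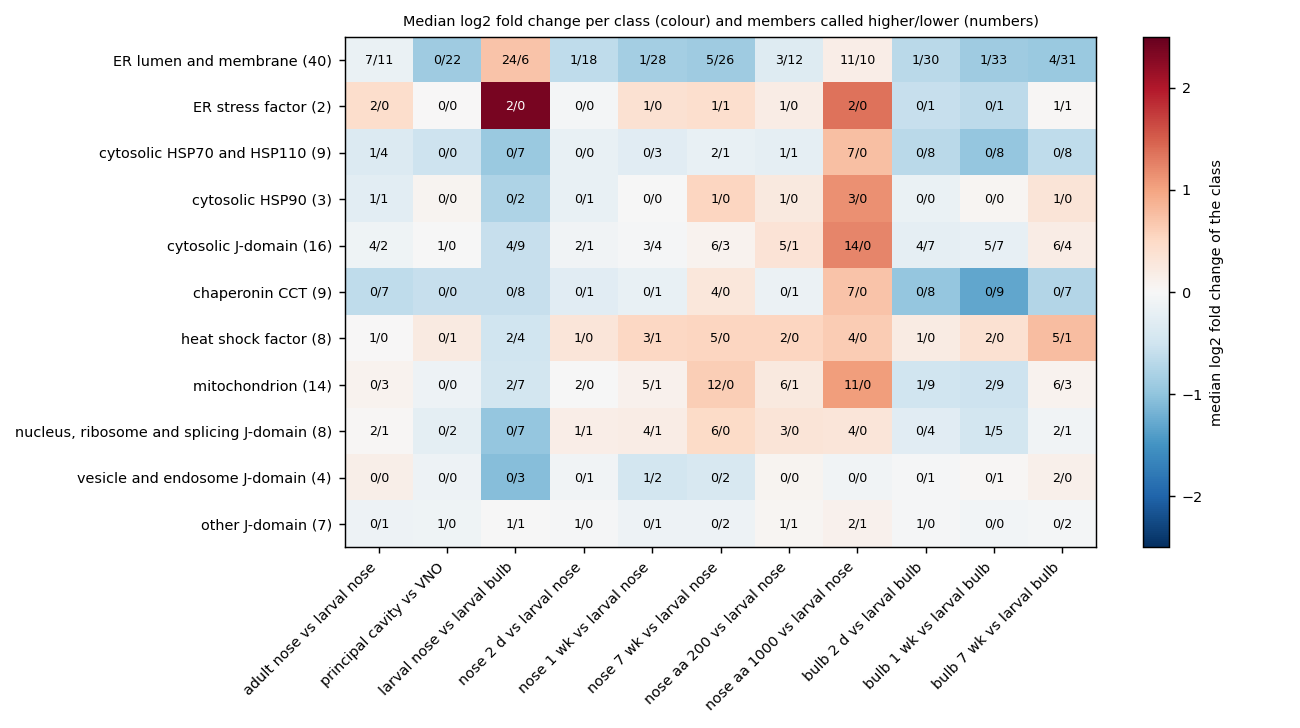
Median log2 fold change (colour) of 11 chaperone classes (rows) in 11 comparisons (columns), with the numbers of members called higher and lower printed in each cell as higher/lower, and the class size beside its name. More ER members were lower than higher after transection in both tissues. Most cytosolic J-domain, HSP70, HSP90, CCT and mitochondrial members were higher at the amino acid dose of 1000. Small heat shock proteins and ciliary members are not drawn.

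The 8 small heat shock protein genes were low and uneven. In 2-day noses library 2 held 5.79 CPM of hspb1.L and 4.11 CPM of hspb7.L, while libraries 1 and 3 held 0.0326 and 0.11 CPM of hspb1.L. In control larval noses hspb1.L had 7.64, 0.515 and 0.325 CPM and hspb7.L had 4.03, 0.696 and 0.428 CPM. Muscle markers summed to 2104 CPM in 2-day library 2 and to 2823 CPM in control library 1, and the part of muscle in these values was not tested. None of the 8 was called in noses at 2 days or 1 week. hspb8.S, a partner of the co-chaperone bag3, had 5.04, 4.16 and 5.26 CPM in noses exposed at 1000 against 1.36, 0.654 and 1.05 CPM in controls (2.35 ± 0.38 log2 units). In the same contrast hspb1.L had 0.025, 0.0571 and 0.0331 CPM at 1000 (-6.11 ± 1.96) and hspb7.L had 0.112, 0.114 and 0.0926 CPM (-3.91 ± 1.45), against the control values above. Both calls ended without control library 1, among 5 and 4 of 12 alternatives. At 200 hspb1.L was called too (-5.78 ± 1.91), a call that ended in 6 of 12 alternatives. In bulbs at 7 weeks hspb8.L had 0.0345, 0.099 and 0.0417 CPM against 0.435, 0.461 and 0.509 CPM in controls (-2.98 ± 0.37), but stood at -0.17 and was not called with homeologs summed. In bulbs hspb1.S had 0.0497, 0.0632 and 0.102 CPM in controls, 1.03, 0.95 and 0.696 CPM at 2 days, 0.803, 0.97 and 0.666 CPM at 1 week, and 1.52, 3.09 and 1.35 CPM at 7 weeks, with no overlap with controls and log2 changes of 3.60, 3.47 and 4.75.

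The homeologs of a member were compared pair by pair. Of 48 pairs tested at the amino acid dose of 1000, 23 had both genes called in the same direction, 0 in opposite directions and 16 had 1 gene called. Opposite calls were found in 4 of 48 pairs in bulbs at 7 weeks, 2 of 48 in noses at 7 weeks, and 1 of 48 each in bulbs at 1 week and in adult noses. The median absolute difference in log2 change between homeologs was 0.21 in noses at 2 days and 0.47 in bulbs at 7 weeks. Reads of near-identical homeologs can be assigned to either copy, and the handling of such reads is not given in the sources used here.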

How the data were processed

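Whole-tissue RNA-seq was deposited as a table of raw counts per gene and a table of TPM values (transcripts scaled to length and library total), both made by the authors. The counts came from bcl2fastq 2.17.1.14, STAR 2.5 and featureCounts of Subread 1.5.0, per the submitters' processing notes; a genome build or gene annotation is not given in the sources used here. Another table, in which the authors divided the counts by 1 factor per library, was not used. Column names gave the group of each library but not which labelled sample it was, so the library numbers used here are those of the columns. Of 37240 rows, 17 identical repeats were dropped, which left 37223 genes, and 117 of the 130 members were found in the RefSeq gene table.

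Counts were tested as deposited with edgeR 4.0.16 (R 4.3.3): genes passed filterByExpr with a minimum count of 10 and a minimum total of 15, factors were TMM, and quasi-likelihood tests with robust dispersions were adjusted over all genes tested by Benjamini and Hochberg. A member was called at an adjusted p under 0.05. Noses (7 groups), bulbs (4 groups), and principal cavity with VNO (2 groups) had a model each, and a model of 8 groups served nose against bulb and the difference between their responses. The SE of a log2 fold change was its size divided by the square root of the F statistic. CPM were scaled with TMM factors over all 39 libraries, and TPM served for levels between genes. The lowest Spearman correlation between libraries of 1 group was 0.9578.

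Genes were named by rule: up to 6 higher and 6 lower called members with the largest change, no overlap between groups and 5 CPM or more on average where they were higher (for the responses, 5 CPM or more in a control group and no condition on overlap), beside central members fixed by role. Genes the rule does not name are given as examples chosen after their values were seen. The members, their classes, 2 lists of pathway genes and 10 marker lists were chosen with earlier results of these data known. Alternatives were RLE factors, DESeq2 1.42.0, no count filter, only the groups compared, all 39 libraries in 1 model, homeologs summed, and each library left out in turn. A fit without both shallowest 7-week nose libraries and a replicate block by column number were added after seeing the data. The block was not counted among a gene's alternatives. The fit without the shallowest pair leaves library 2 as the only 7-week nose library. Depth and the spread between libraries cannot be told apart in it. The fits were checked on simulated data with 200 changed genes. Recovery of 2-fold changes was 76% for 2-day noses, 84% for 2-day bulbs and 8% for principal cavity against VNO. For 4-fold changes it was 95%, 100% and 66%, and false calls made up 3.39%, 6.6% and 6.33% of calls. Far more genes were called in the real contrasts than the 200 changed here. The adjustment was thus stricter in the simulation, and these rates do not give the recovery in the real contrasts. The models hold different numbers of libraries, so counts of called members are not directly comparable between them.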

Additional observations from a re-analysis of the deposited data

Results flagged for a closer look

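The log2 change after transection was compared between tissues as the nose change minus the bulb change, and the members below were flagged because this difference itself was called by edgeR's quasi-likelihood test. In all, 23 of 130 members differed at 2 days, 46 at 1 week and 50 at 7 weeks. Over all genes tested, 16.1%, 25.4% and 35.7% differed, so the totals at 2 days and 7 weeks were near those of all genes. Of these, the members named at each time are up to 6 each way with the largest differences among those of 5 CPM or more in a control group.

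At 2 days positive differences were found for the HSP110 gene hsph1.L (1.24), the mitochondrial HSP60 genes hspd1.L (1.14) and hspd1.S (0.87), the ER disulfide reductase gene dnajc10.S (1.01), the mitochondrial J-domain gene dnaja3.L (0.99, or 0.50 with homeologs summed) and the axonemal gene dnajb13.S (0.91). Negative differences were found for the ER J-domain genes dnajb9.L (-1.25), dnajb9.S (-0.86) and dnajb12.S (-0.46) and for the auxilin gene dnajc6.L (-0.77). The calls of dnajb12.S and dnajc6.L ended in 11 and 10 of 18 alternatives.

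At 1 week dnajc11.S differed by 1.48, but its call ended, at 0.58, with homeologs summed. The CCT genes cct7.S (1.37), cct4.S (1.19) and cct2.L (1.19), hsph1.L (1.33) and manf.L (1.25) were also positive, the last with a call that ended in 6 of 18 alternatives. Negative differences were found for dnajc6.L (-1.58) and dnajc6.S (-0.90), dnajb9.L (-1.08) and dnajb9.S (-0.92), and the cytosolic J-domain genes dnajb2.L (-1.07) and dnajb6.S (-0.45), whose call ended in 6 of 18 alternatives.

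At 7 weeks the ER J-domain gene dnajc16.S differed by 2.52, or 1.07 without the pair of shallowest 7-week nose libraries. Leaving out that pair keeps library 2 alone in the 7-week nose group. cct7.S (1.85, or 1.15 with homeologs summed), hsph1.L (1.79), dnajc11.S (1.76, or 1.14 with homeologs summed), manf.S (1.53) and cct4.S (1.53) were also positive. On the negative side were dnajc6.L (-1.25), dnajb6.S (-0.81), dnajb9.L (-0.87), dnajb9.S (-0.81), sdf2l1.S (-0.87) and hsp90aa1.1.L (-0.78). Without that pair of libraries dnajb9.L stood at -0.53, dnajb9.S at -0.55 and sdf2l1.S at -0.58, and sdf2l1.S stood at -0.52 with homeologs summed. The call of hsp90aa1.1.L ended in 12 of 19 alternatives.

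Members of lower expression were called as well and stand outside those lists. hspb1.S differed by -3.70, -4.78 and -5.28 at 2 days, 1 week and 7 weeks, dnajb2.S by -2.26, -2.53 and -2.52 (-0.67, -1.13 and -0.72 with homeologs summed), and hspa2.L by 1.92, 1.90 and 1.35. At 7 weeks cdnf.L (-1.26) and hsf4.S (-3.94) differed too, the call of hsf4.S ending in 12 of 18 alternatives. The 2-day call of hspb1.S ended with homeologs summed.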

How the results depend on the processing

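Of 214 alternative counts of called members, 191 were within 1.5 times the count reported. With homeologs summed fewer rows were tested, and the counts were 31 for adult noses (49 reported), 14 for principal cavity against VNO (27), 57 for nose against bulb (95), 17, 37 and 49 for noses at 2 days, 1 week and 7 weeks (31, 60 and 78), 46, 49 and 45 for bulbs (78, 88 and 88), 52 for the amino acid dose of 1000 against controls (80), 45 against the dose of 200 (69), and 13, 26 and 32 for the differences between responses (23, 46 and 50). In the same setting xbp1.S turned to 0.84 in 7-week noses and to 0.31 in 7-week bulbs, and cct8.S to 0.03 in 7-week bulbs. With all libraries in 1 model 59 members were called between principal cavity and VNO, and with only the groups compared 44 in 7-week noses and 32 in the 7-week responses, fewer libraries by construction. RLE factors moved the median log2 change to -0.23 in 1-week noses (-0.26 with TMM) and to -0.42 in 2-day bulbs (-0.44). Leaving out 1 library gave 15 to 29 members for principal cavity against VNO, 15 to 41 for 2-day noses and 25 to 49 for the dose of 200. A fit without the pair of shallowest libraries, chosen after seeing the data, kept only library 2 of the 7-week noses, so its counts are not given. The titles number each library differently, while the columns number the libraries of every group 1 to 3. No label says that these column numbers pair libraries: deviations from group means correlated between -0.27 and 0.24 for the same number, and in 0 of 12 comparisons was every pair over 0.1. For principal cavity against VNO the correlations were -0.08, 0.11 and 0.24. Titles number the principal cavity 11, 13 and 15 and the VNO 12, 14 and 16. Whether both tissues came from the same animals is not labelled, and they were tested as unpaired. A replicate block by column number, chosen after seeing the data, gave 30 members for principal cavity against VNO, and none of its 15 counts moved by over 1.5 times. Depth was at least 25.82 M reads per library, and members under about 1 CPM rest on few reads in the shallowest ones.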
